A study of Homo sapiens with 8 samples.

Results

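The genes described here are 49 human genes of chromosome duplication and segregation, 33 of DNA replication and nucleotide supply and 16 of the centromere and kinetochore. They were taken by name from a list that was drawn up with earlier results of these data known. The 49 are among 19583 protein-coding genes on chromosomes 1 to 22 and X that serve as all genes here. Of these, 18515 had a known strand. The other 1068 lacked one, were kept because no histone peak lay within 5 kb of either end, and count as genes without a peak. A further 387 without a strand were left out because they had such a peak. Shares of all genes with a peak are therefore lower than over the 18515 alone. Values for peaks inside genes and for shared promoters use the 18515. A gene was counted as marked when a peak of histone acetylation reached within 1 kb of its start. The marks were 2 acetylated histone residues, lysine 9 of histone H3 (H3K9ac) and lysine 16 of histone H4 (H4K16ac), measured by chromatin immunoprecipitation and sequencing in KGN cells, an established line from a human ovarian granulosa cell tumour. One group was the untreated control and the other received 1 mM butyrate, an inhibitor of histone deacetylases, for 6 h. In each condition there is 1 library per antibody, against H3K9ac, against H4K16ac and nonspecific (IgG), and 1 of input chromatin, which makes 8 samples, and the 2 input samples were not analysed here. The labels give no synchronisation step, the phases of the cells were not measured, and a mark that is weaker in every cell cannot be told apart from one that is present in fewer cells. With 1 library per group no difference between conditions could be tested, and none has a replicate check.

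Before a cell copies its DNA, the origin recognition complex (ORC), CDC6 and CDT1 load the MCM2-7 helicase onto chromatin. CDC45, the GINS complex and MCM10 then switch the helicase on, and primase, the DNA polymerases, the sliding clamp PCNA and its loader, replication factor C (RFC), copy the strands. The centromere is marked by CENPA, a variant of histone H3, on which the constitutive centromere proteins assemble the kinetochore that holds the spindle. Many of these genes are transcribed in waves during the cell cycle, through E2F sites in genes that act at the start of S phase and through the cell cycle homology region (CHR), often beside CCAAT boxes, in genes that act in G2 phase and mitosis. Acetylation at histone H3 lysine 9 is typical of active promoters, and acetylation at histone H4 lysine 16 is known for loosening the packing of nucleosomes.

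The lists hold 22215 H3K9ac peaks in control and 79356 with butyrate, and 73586 and 33752 H4K16ac peaks. The H3K9ac lists stop at a q of 0.05, whereas the H4K16ac lists were limited on p and go up to a q of 0.304 in control and 0.621 with butyrate, so that many H4K16ac peaks in them are weak. The names of the peaks in both lists labelled H4K16ac carry the letters k12, and which antibody that reflects was not resolved. The IgG lists hold 5 and 2 peaks, none within 1 kb of the start of any of the 49 genes. Among 10 granulosa cell markers, 3 had an H3K9ac promoter peak in control (CYP11A1, FOXL2 and INHA) and 6 with butyrate, with AMHR2, FST and INHBA added. Among 14 placed markers of blood, epithelium, endothelium, neurons and oocytes, 2 had one in both conditions, the oocyte genes GDF9 and ZP3. H4K16ac peaks lay at 3 of the granulosa cell markers in control (AMHR2, CYP11A1 and INHA) and at 1 with butyrate (AMHR2), and at 1 of the other markers in control (ZP3) and 4 with butyrate (CDH5, KRT14, PECAM1 and ZP3). The part of other cell types in the H4K16ac calls was not tested.

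The promoters of 7 of the 49 genes are printed here because the results turn on them. NEIL3 and CENPU are the genes whose H3K9ac peak was listed in control alone, MCM7, DTYMK and RRM1 had 3 of the strongest H4K16ac peaks in control, and MCM6 and CENPF show the motifs that differ between the replication and the centromere genes. The H4K16ac peaks of MCM7 and DTYMK lie just downstream of the printed bases, and that of RRM1 covers only part of them. Each runs 5′ to 3′ in the direction of its gene, from 250 bases before to 50 bases after the RefSeq start in GRCh38.p14, and capitals mark a match, on either strand, to CCAAT, to an E2F motif (TTTCCCGC, TTTGGCGC or TTTCGCGC) or to a CHR motif (TTTGAA or TTCGAA). NEIL3 lies at chr4:177309624-177309923 (plus strand), CENPU at chr4:184734047-184734346 (minus strand), MCM7 at chr7:100101348-100101647 (minus strand), DTYMK at chr2:241686766-241687065 (minus strand), RRM1 at chr11:4094435-4094734 (plus strand), MCM6 at chr2:135876394-135876693 (minus strand) and CENPF at chr1:214602945-214603244 (plus strand).
NEIL3: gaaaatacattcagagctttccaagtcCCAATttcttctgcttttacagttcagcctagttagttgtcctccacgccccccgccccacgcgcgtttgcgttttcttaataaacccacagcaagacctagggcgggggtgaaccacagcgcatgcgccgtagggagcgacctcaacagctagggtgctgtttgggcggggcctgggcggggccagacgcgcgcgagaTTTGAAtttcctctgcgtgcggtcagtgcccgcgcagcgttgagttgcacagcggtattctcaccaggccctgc
CENPU: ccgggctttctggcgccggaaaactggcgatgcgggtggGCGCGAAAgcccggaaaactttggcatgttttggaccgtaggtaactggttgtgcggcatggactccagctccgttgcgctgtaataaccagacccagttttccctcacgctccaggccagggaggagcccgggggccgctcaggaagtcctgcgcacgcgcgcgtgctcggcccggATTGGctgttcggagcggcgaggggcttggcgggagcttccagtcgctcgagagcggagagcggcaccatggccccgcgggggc
MCM7: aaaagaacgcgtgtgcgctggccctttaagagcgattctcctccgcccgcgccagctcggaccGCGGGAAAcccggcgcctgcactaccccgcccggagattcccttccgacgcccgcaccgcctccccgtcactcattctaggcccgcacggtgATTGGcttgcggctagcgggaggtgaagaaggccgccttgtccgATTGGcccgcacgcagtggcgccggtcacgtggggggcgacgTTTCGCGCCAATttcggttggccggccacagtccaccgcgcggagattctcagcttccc
DTYMK: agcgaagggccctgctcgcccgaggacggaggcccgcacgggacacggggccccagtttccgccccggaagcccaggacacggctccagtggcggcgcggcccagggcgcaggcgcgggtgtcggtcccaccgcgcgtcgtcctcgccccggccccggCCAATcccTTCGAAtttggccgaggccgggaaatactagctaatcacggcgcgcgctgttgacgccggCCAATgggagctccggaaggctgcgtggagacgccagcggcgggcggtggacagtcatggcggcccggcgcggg
RRM1: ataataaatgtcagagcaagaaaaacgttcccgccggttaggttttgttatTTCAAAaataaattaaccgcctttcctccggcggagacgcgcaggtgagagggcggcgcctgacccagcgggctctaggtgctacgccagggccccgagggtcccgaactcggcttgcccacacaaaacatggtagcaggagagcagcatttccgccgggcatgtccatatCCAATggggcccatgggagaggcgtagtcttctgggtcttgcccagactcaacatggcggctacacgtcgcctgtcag
MCM6: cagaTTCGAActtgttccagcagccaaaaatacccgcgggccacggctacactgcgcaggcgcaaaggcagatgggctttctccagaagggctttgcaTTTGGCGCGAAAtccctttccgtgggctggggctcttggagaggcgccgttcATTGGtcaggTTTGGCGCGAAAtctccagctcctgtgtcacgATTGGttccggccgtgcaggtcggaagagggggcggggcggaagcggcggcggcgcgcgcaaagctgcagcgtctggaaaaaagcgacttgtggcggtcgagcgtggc
CENPF: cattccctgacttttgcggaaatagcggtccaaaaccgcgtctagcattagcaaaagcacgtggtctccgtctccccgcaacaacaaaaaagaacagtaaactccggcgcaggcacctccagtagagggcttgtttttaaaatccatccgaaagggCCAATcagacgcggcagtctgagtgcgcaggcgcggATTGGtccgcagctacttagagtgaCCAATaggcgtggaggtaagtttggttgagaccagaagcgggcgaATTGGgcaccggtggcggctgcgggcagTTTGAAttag

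H3K9ac lay at the promoter of 49 of the 49 genes in control and of 47 with butyrate. Over all genes the shares were 54.9% in control and 64% with butyrate. None of the 49 gained an H3K9ac peak, a count that the complete marking in control fixes, while 9.31% of all genes did (20.6% of those without a control peak). NEIL3 and CENPU had an H3K9ac peak in control and none with butyrate. Such losses were rare, 0.184% of all genes or 36 in number (0.335% of the genes with a control peak), and since both genes were known as losses when the list was drawn up, nothing is read from their number. The share marked in both conditions was 54.7% of all genes. Among the replication genes 33 of 33 were marked in control and 32 with butyrate, and among the centromere genes 16 of 16 and 15, so that the 2 sets did not differ by more than 1 gene in either list.

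**Figure D1:**
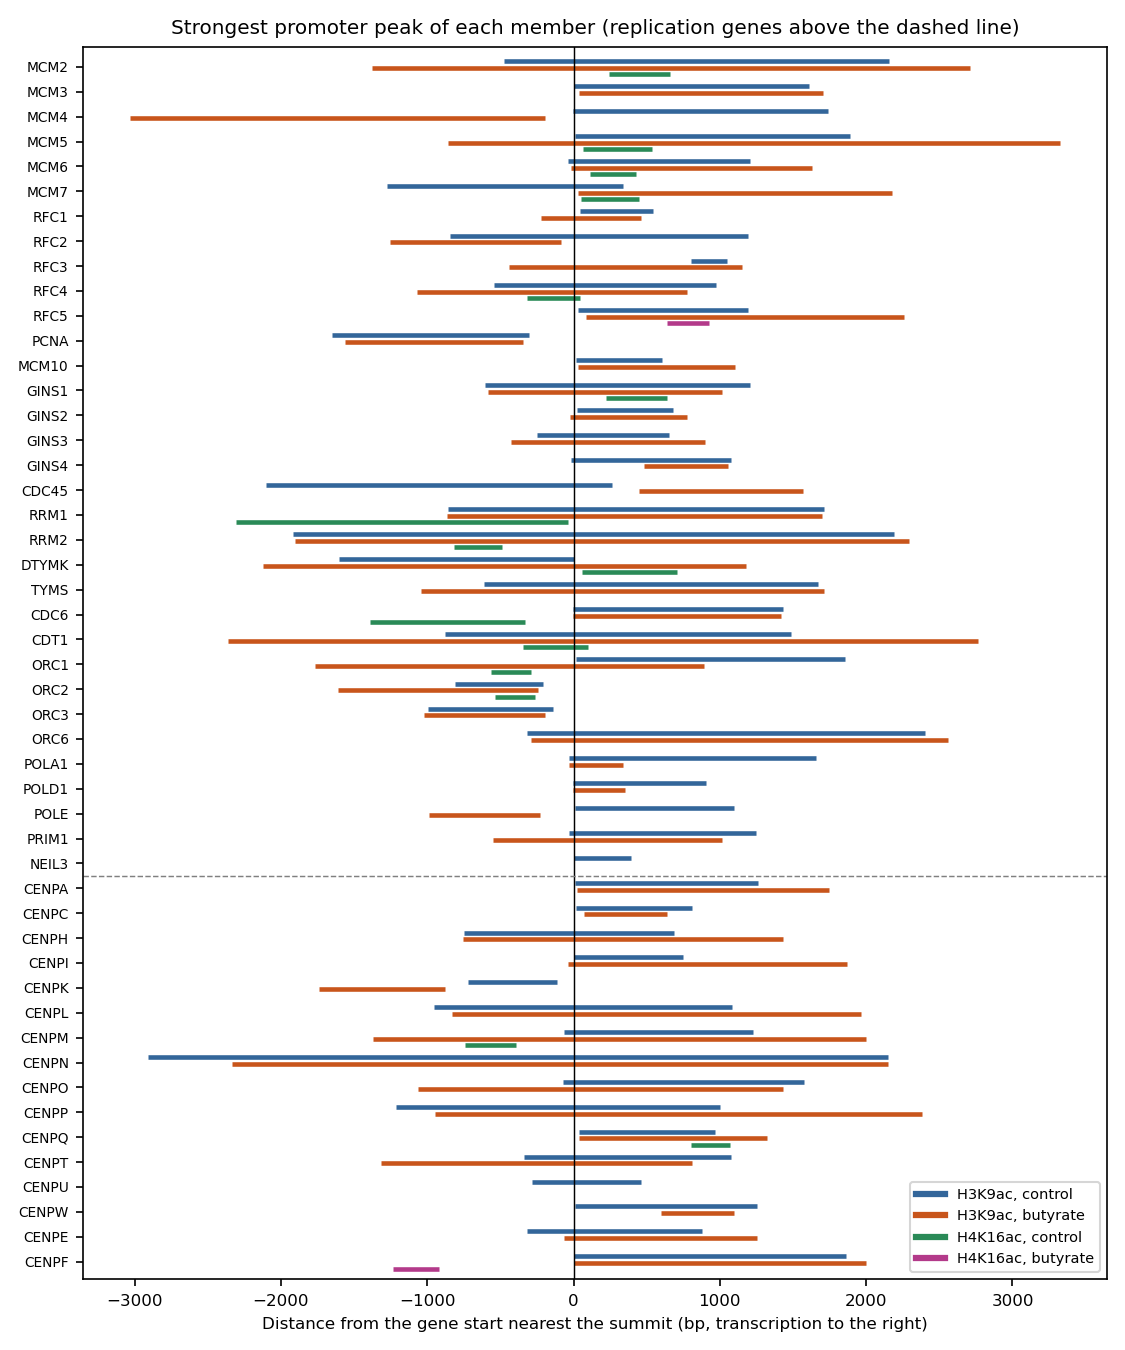
Extent of the strongest promoter peak of each of the 49 genes, with the distance from the gene start in bp on the horizontal axis and transcription running to the right. Bars show H3K9ac in control (blue) and with butyrate (orange) and H4K16ac in control (green) and with butyrate (magenta). All rows but NEIL3 and CENPU have an orange bar, 15 rows have a green bar and 2 rows a magenta one.

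NEIL3 encodes a DNA glycosylase that removes oxidised bases and acts in the repair of crosslinks at the replication fork. Its control H3K9ac peak was chr4:177309879-177310265, 387 bp wide, with 17 fragments at the summit, a fold of 5.82 over the local background and a −log10 q of 8.08. In the butyrate list the nearest H3K9ac peak began 131833 bp downstream. CENPU belongs to the constitutive centromere network. Its control peak was chr4:184733634-184734380, 747 bp wide, with 19 fragments, a fold of 6.47 and a −log10 q of 9.87, and the nearest butyrate peak lay 84639 bp downstream. Both control peaks were of modest strength, above 18.9% and 27.8% of the genes with a control peak by −log10 q. At the same level relative to background, the butyrate library would have had 22.2 fragments at NEIL3 and 24.8 at CENPU, and its list reaches down to 9 fragments. The numbers in the names of the butyrate peaks run without a gap, so no numbered peak is missing from the list. The 9 fragments are the lowest of the whole list and not the limit at these promoters. Whether the mark there fell below detection was not tested.

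Both genes lie near the end of the long arm of chromosome 4, in a stretch without a listed H4K16ac peak. The last H4K16ac peak of this chromosome in either list ended at position 174308539, before both genes, while 948 control and 300 butyrate H4K16ac peaks lay on the chromosome up to there. H3K9ac peaks beyond that position numbered 25 in control and 32 with butyrate, against 596 and 1106 before it. The stretch beyond is far shorter, so these counts are not densities, and its boundary was set from these same lists. The nearest control H4K16ac peak lay 3001297 bp from NEIL3 and 10425557 bp from CENPU. Beyond it 20 genes had a control H3K9ac promoter peak, with a median level of 6.93 times the library-wide background against 9.56 on the rest of the chromosome. Of the 20, 4 had none with butyrate, and these include NEIL3 and CENPU, the losses that led to this stretch. The level of a peak is here the number of fragments at its summit divided by a background value of its list. That value is a low percentile of the local backgrounds at the summits (2.09 fragments in control and 2.73 with butyrate for H3K9ac). It stands for the library-wide background, which was not measured directly. Over all genes the median control level was 13.4, and chromosomes 4 and 14 shared the lowest median of any chromosome, 9.56. Of the 36 genes that lost H3K9ac, 8 were on chromosome 4, NEIL3 and CENPU among them, 2.25% of its 355 genes with a control peak. The number of copies of this stretch in KGN cells is not known here, and a level relative to a library-wide background does not correct for it. The part of the chromosome in the losses was not tested.

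The other members on chromosome 4 were low as well. RFC1 (the large subunit of the clamp loader) had a control level of 7.17, CENPE (a kinetochore motor) 8.13 and CENPC (which binds CENPA nucleosomes) 11.0. The 5 members on this chromosome ranged from 7.17 to 11.0, with a median of 8.13, and the 44 elsewhere from 6.22 to 50.7, with a median of 15.3. All 5 lay below the median of all genes. With butyrate RFC1 had a level of 6.96, CENPE 8.06 and CENPC 5.86, so that CENPC fell furthest of the 3 that stayed marked.

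Levels at the 47 genes marked in both conditions were mostly lower with butyrate, relative to each library's own background. The median ratio of butyrate to control was 0.767, with a range from 0.415 to 1.36. It was above 1 at 2 of the 47 (4.26%), RFC3 and GINS2, against 24.2% of the 10717 genes marked in both, whose median was 0.828. The control levels of the members had a median of 14.8, above the 13.4 of all genes, so the ratio was also read within a common range. Among the 23 members with 24.5 to 38.5 control fragments at the summit the median ratio was 0.767 and 0 were above 1, against 0.790 and 11.6% of 5651 genes in the same range. The range was the middle part of the members' own control counts. RFC3 with 13 and GINS2 with 19 control fragments lie below it, so the range fixed the count of 0 and nothing is read from it. Raw fragments, not divided by the background, rose at 19 of 47 (40.4%) and at 59.5% of all genes. The direction thus rests on the scaling, since the raw median ratio was 1.00 for the members and 1.08 for all genes.

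**Figure D2:**
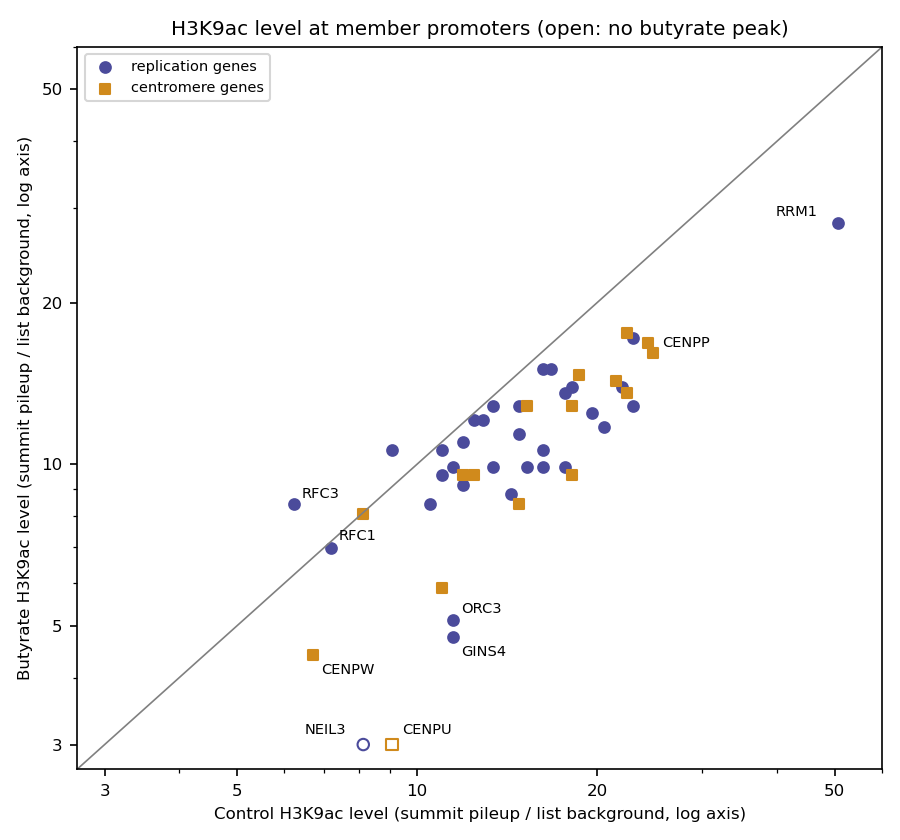
H3K9ac level at each promoter, fragments at the summit divided by the library-wide background, in control (horizontal) and with butyrate (vertical), both on log axes. Circles are replication genes and squares centromere genes, the grey line marks equal levels, and the open symbols on the bottom edge are NEIL3 and CENPU, which have no butyrate peak and no value there. RFC3 and GINS2 lie above the line and the other 45 below it.

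RRM1, the large subunit of ribonucleotide reductase, had the strongest H3K9ac peak of the set in control, with 106 fragments and a −log10 q of 46.1. With butyrate it had 77 fragments and a −log10 q of 28.6, second in the set. Its local background was high, 14.7 fragments in control and 12.8 with butyrate, so that its fold was 6.82 and 5.64, above 55.2% and 44.0% of all marked genes. CENPP, a subunit of the CENP-O group of centromere proteins, had 52 fragments, a fold of 15.1 and a −log10 q of 42.7 in control and 44 fragments, a fold of 11.5 and a −log10 q of 30.7 with butyrate, where it was first. By fold it stood above 99.9% of all marked genes in the butyrate list. RFC2, a small subunit of the clamp loader, was the third in control (48 fragments, −log10 q 34.5), and CENPN, which recognises the CENPA nucleosome, was the third with butyrate (40 fragments, −log10 q 22.5). The weakest control peaks were those of CENPW (14 fragments, −log10 q 3.23), RFC3 (13 fragments, 4.76) and RFC1 (15 fragments, 5.39). With butyrate the weakest were CENPW (12 fragments, −log10 q 3.14), GINS4 (13 fragments, 3.48) and CENPC (16 fragments, 3.94). Strong and weak peaks thus came from both sets.

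GINS4, ORC3, CENPH and CENPC had the lowest ratios of level among the genes that kept a peak, from 0.415 to 0.533. GINS4, a subunit of the helicase-activating GINS complex, went from 24 fragments and a fold of 8.09 to 13 fragments and a fold of 3.58. Its summit lay 138 bp downstream of the start in control and 808 bp downstream with butyrate. ORC3 went from 24 fragments to 14, with folds of 8.09 and 4.02. CENPH, a subunit of the constitutive centromere network, went from 38 fragments to 26, yet its fold over the local background was 6.50 and 6.90. CENPC, the link between CENPA and the kinetochore, went from 23 fragments to 16, with folds of 7.76 and 3.49. In the other direction RFC3 rose from 13 to 23 fragments, and its level from 6.22 to 8.43. Here too the summits lay apart, 918 bp downstream of the start in control and 107 bp downstream with butyrate. GINS2 rose from 19 to 29 fragments and from a level of 9.08 to 10.6. Among the helicase subunits the ratio of levels ran from 0.559 (MCM2 and MCM4) to 0.924 (MCM3).

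The replication and the centromere genes overlapped in this measure. The median ratio was 0.767 for the 32 replication genes and 0.691 for the 15 centromere genes, and the ratio was above 1 at 2 and at 0 of them. Control levels were a median of 14.3 for the replication and 16.7 for the centromere genes, with butyrate 10.8 and 12.8. The ranges of the sets overlapped in both libraries, and by level, though not by fold over the local background, RRM1 stood above every other member in each.

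Peaks were wider with butyrate, as over all genes. The median width went from 1414 bp to 1663 bp for the members and from 1191 bp to 1495 bp for all marked genes, and the median ratio per gene was 1.32 for members and 1.35 for all genes. CENPN had the widest control peak, 5062 bp with 10 summits, followed by RRM2 (the small subunit of ribonucleotide reductase) with 4109 bp and ORC6 with 2719 bp. RFC3 had the narrowest, 243 bp, then NEIL3 with 387 bp and RFC1 with 499 bp. With butyrate CDT1, the licensing factor that loads the helicase, had the widest peak, 5130 bp against 2363 bp in control. CENPN with 4486 bp and RRM2 with 4195 bp followed. POLD1 (357 bp) and POLA1 (367 bp), catalytic subunits of polymerases delta and alpha, had the narrowest strongest peaks with butyrate, against 911 bp and 1688 bp in control, and CENPW came next with 501 bp. Both polymerase genes had 2 separate promoter peaks with butyrate and 1 in control.

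The H3K9ac summit lay just inside the gene at most members. In control it was downstream of the start at 39 of 49 (79.6%; 75.7% of all marked genes), within 500 bp at 44 (89.8%; 76.5%), and at a median distance of 173 bp downstream. With butyrate it was downstream at 36 of 47 and within 500 bp at 34 (72.3%; 71.1% of all marked genes). At CDC45, CENPK, MCM4, MCM7 and POLE the strongest peaks of the 2 conditions were separate peaks near the start, and at CENPT they lay at 2 different annotated starts, 13780 bp apart, so that their ratios compare different peaks. At other members, such as RFC3 and GINS4, the strongest peaks overlapped but their summits lay apart, so that those ratios compare different positions. At all 47 genes some promoter peak overlapped between the conditions.

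H4K16ac was found at the promoters of 15 of the 49 genes in control, 13 replication genes (39.4%, exact 95% interval 22.9% to 57.9%) and 2 centromere genes (12.5%, 1.55% to 38.3%). The intervals cover counting of genes only, and they overlap. With a window of 2.5 kb the counts were 15 of 33 and 7 of 16, so that the lower share of the centromere genes holds for the 1 kb window and was not seen in the wider one. The share over all genes was 18.9%, and 30.8% among genes with a control H3K9ac peak, next to 30.6% of the 49. With butyrate 2 of the 49 had an H4K16ac peak, RFC5 and CENPF, where 4.61% of all genes and 5.57% of those with a butyrate H3K9ac peak had one. None of the 15 kept theirs, and the 2 with butyrate had none in control. Losing the mark was the rule in these libraries, at 89.1% of all genes marked in control (16.8% of all genes lost it, 2.07% kept it, and 2.54% gained it, or 3.14% of those without it). The loss at 15 of 15 is therefore close to that of genes at large. It rests on the 1 kb window. At 2.5 kb 5 of 22 members marked in control also had a butyrate peak (22.7%; CENPT, MCM2, MCM5, ORC1 and RRM1). The share was 28.7% of all genes marked in control. At 5 kb it was 8 of 29 (27.6%), against 43.7%. These counts need a peak near any annotated start in both lists, not the same peak. At MCM5, ORC1 and CENPT the control and butyrate peaks closest to a start lay by different annotated starts, 10269, 5044 and 13780 bp apart. At MCM2 they lay on opposite sides of the start.

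**Figure D3:**
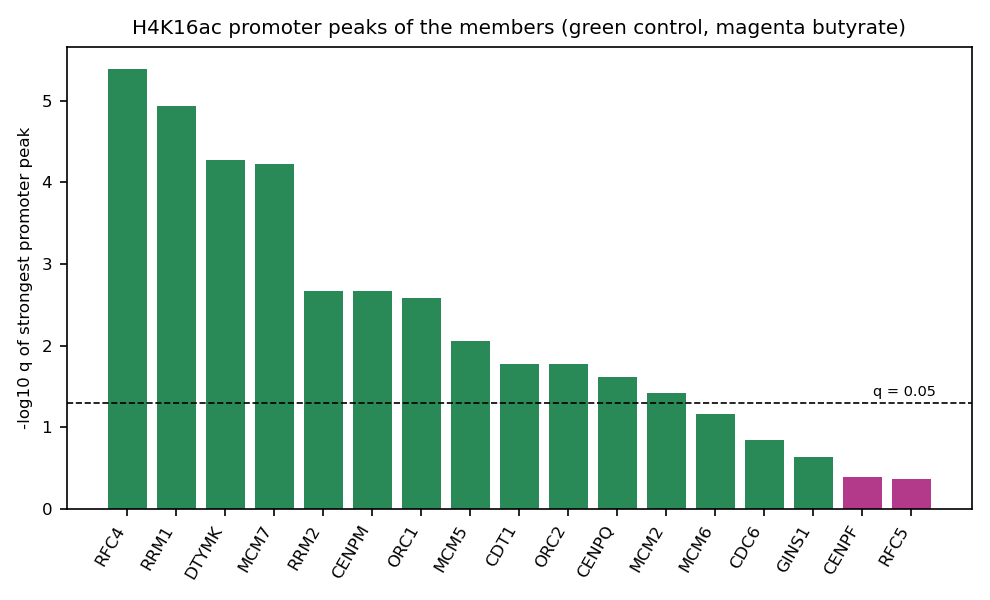
Strength (−log10 q) of the strongest H4K16ac promoter peak of each gene that had one, in control (green) and with butyrate (magenta), with a dashed line at q = 0.05. The line is passed by 12 of the 15 control peaks and by neither butyrate peak.

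The marked replication genes were grouped by role. Of the MCM2-7 helicase 4 of 6 had H4K16ac in control (MCM2, MCM5, MCM6 and MCM7), of the origin licensing genes 4 of 6 (ORC1, ORC2, CDC6 and CDT1), and of the nucleotide supply genes 3 of 4 (RRM1, RRM2 and DTYMK, the thymidylate kinase). Only 1 of the 6 helicase activation genes had it (GINS1), 1 of the 6 clamp and clamp loader genes (RFC4) and 0 of the 4 polymerase and primase genes. Of the inner kinetochore genes 2 of 14 had it (CENPM and CENPQ, both of the constitutive centromere network), and of the 2 outer kinetochore genes, CENPE and CENPF, neither. The share was 18.9% of all genes and 30.8% of genes with a control H3K9ac peak. Each of these groups is small, with an exact 95% interval of 22.3% to 95.7% for 4 of 6. The contrast between the roles was not tested.

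RFC4, a clamp loader subunit that was a known loss when the list was drawn up, had the strongest H4K16ac peak of the set, chr3:186806654-186807014, with 17 fragments, a fold of 6.04 and a −log10 q of 5.39. It stood above 99.7% of the genes with a control H4K16ac peak, and its nearest butyrate H4K16ac peak was 11945 bp upstream. RRM1 followed with a peak of 2272 bp, chr11:4092379-4094650, 34 fragments and a −log10 q of 4.94, and with a local background of 8.82 fragments its fold was 3.56. DTYMK, also a known loss, had 14 fragments, a fold of 5.71 and a −log10 q of 4.27 at chr2:241686109-241686758. MCM7 had 15 fragments, a fold of 5.44 and a −log10 q of 4.23 at chr7:100100949-100101346. By −log10 q these 4 stood apart from the rest, which did not exceed 2.67, whereas by fold RRM1 lay below the median of the 15 (3.64).

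Of the other 11 control peaks, RRM2 and CENPM had a −log10 q of 2.67, ORC1 (the largest subunit of the origin recognition complex) 2.59 and MCM5 2.06. CDT1 and ORC2 had 1.77, CENPQ 1.61 and MCM2 1.42. MCM6 with 1.16, CDC6 with 0.836 and GINS1 with 0.630 did not reach a q of 0.05. At that limit 12 of the 49 genes were marked in control, where 10.5% of all genes were, and 0 with butyrate, where 0.046% were. All 12 were lost at that limit, as were 2058 of the 2063 genes marked in control (99.8%; 10.5% of all genes), and 0 were gained, against 0.0204% of all genes. Summit counts were small, 8 to 34 fragments, so that the list names which promoters passed a limit and not how much of the mark each held.

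The gained peaks were weak. At RFC5, a clamp loader subunit, the butyrate peak chr12:118017363-118017650 had 8 fragments, a fold of 2.74 and a −log10 q of 0.361. At CENPF, a large protein of the outer kinetochore, the peak chr1:214601962-214602277 had 11 fragments, a fold of 3.17 and a −log10 q of 0.384. Neither would be called at a q of 0.05. RRM1 was close to keeping its mark: a butyrate H4K16ac peak of 28 fragments, chr11:4092365-4093453, with a −log10 q of 1.24, ended 1232 bp upstream of its start and so fell just outside the 1 kb window, nearly all of it within the stretch that the control peak covered. Butyrate H4K16ac peaks of MCM5 (1371 bp from the nearest annotated start), ORC1 (1390 bp) and MCM2 (2276 bp) lay outside the window too. At MCM5 and ORC1 the control promoter peaks lay by another annotated start, 10269 bp and 5044 bp away from that one. Control H4K16ac peaks of CENPI (1006 bp from the nearest annotated start), TYMS (1029 bp), CENPT (1217 bp) and CENPP (1301 bp) also fell just outside.

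Where both marks were present they mostly met. Any control H4K16ac promoter peak overlapped any control H3K9ac promoter peak at 14 of 15 genes, and at 72.0% of all genes with both marks. CDC6, whose H4K16ac peak lay between positions −1391 and −332 from its nearest start, was the exception. By the strongest peak of each mark the overlap was at 10 of 15 genes, and at 49.05% of all genes with both marks. CENPM, DTYMK, MCM7 and ORC1 then lay apart as well. The H4K16ac summit was downstream of the start at 7 of 15 members (46.7%; 41.0% of all genes with the mark) and upstream at the others, unlike H3K9ac, which lay mostly downstream. The peaks were narrow, with a median of 398 bp for the members and 401 bp for all genes with the mark.

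Within the transcribed parts, away from the start, the 2 marks moved in opposite directions. Inside the 49 genes there were 21 H3K9ac peaks in control and 110 with butyrate, or 0.826 and 4.33 per 100 kb of gene, against 0.535 and 3.34 for all genes. H4K16ac went from 170 peaks to 39, or 6.69 and 1.53 per 100 kb, against 4.31 and 1.51 for all genes. These shifts follow the numbers of peaks in the lists. MCM2, MCM5 and RRM2 had the most H3K9ac peaks with butyrate, 9 each, against 1, 0 and 2 in control, and RFC4 and CENPM had 7 each, with 0 in control. POLA1 had the most H4K16ac peaks, 34 in control and 1 with butyrate, followed by CENPP with 22 and 3. These are the longest members, of 303 and 295 kb. Without them the H4K16ac density of the members was 5.87 in control and 1.80 with butyrate.

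**Figure D4:**
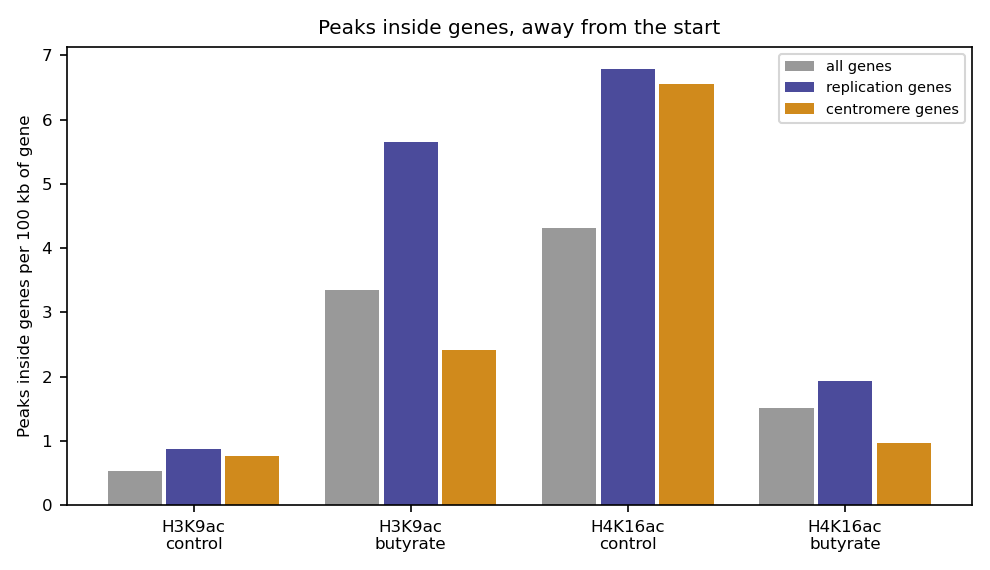
Number of peaks inside genes per 100 kb of gene, for all genes (grey), the replication genes (blue) and the centromere genes (orange), in each of the 4 lists. H3K9ac peaks with butyrate were at 5.66 per 100 kb in the replication genes and 2.41 in the centromere genes, and H4K16ac peaks in control at 6.79 and 6.55.

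The H3K9ac peaks listed inside genes with butyrate were denser in the replication than in the centromere genes, a contrast that was not tested. The replication genes went from 0.865 to 5.66 per 100 kb and the centromere genes from 0.770 to 2.41. At least 1 such peak was present with butyrate in 25 of 33 replication genes (75.8%) and 10 of 16 centromere genes (62.5%), against 52.4% of all genes. Without POLA1 and CENPP the densities with butyrate were 6.92 and 3.09. NEIL3 and CENPU had no peak of either mark inside the gene in any list, and neither did CENPW, RFC3, POLD1 and ORC6.

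Many of the 49 promoters are shared with a neighbour that is transcribed the other way. An opposite start lay within 1 kb at 17 of them (34.7%), 9 replication and 8 centromere genes, against 15.4% of all genes. Examples are CENPO with PTRHD1 (34 bp between the starts), CENPQ with MMUT (117 bp), CENPP with NOL8 (118 bp), MCM2 with TPRA1 (180 bp) and DTYMK with ING5 (205 bp). At such promoters a peak cannot be given to one gene of the pair. All 17 had H3K9ac in both conditions, as did 30 of the 32 members without a partner. Over all genes H3K9ac was listed in control at 90.3% of those with a partner and 52.2% of those without. H4K16ac was listed in control at 5 of the 17 members (29.4%) and 10 of the 32 (31.2%), against 31.3% and 18.0% of all genes with and without a partner.

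Motifs of cell cycle promoters were counted in the 43 members with a RefSeq promoter entry (30 replication and 13 centromere genes). CENPL, CENPH, GINS4, MCM4, MCM5 and CENPM have none. The entries of ORC1 and CENPI lie 5080 bp and 2854 bp downstream of the RefSeq gene start. That of CENPI holds no match and is counted among the 13. Both strands were searched, and matches may overlap, as in TTTGGCGCGAAA, where TTTGGCGC and the reverse of TTTCGCGC share bases. An E2F motif was present in 15 of 30 replication promoters, 2 of 13 centromere promoters (15.4%; CENPA and CENPU), 3.77% of all 15812 promoters and 5.05% of those with control H3K9ac. A CHR motif was present in 4 of 30 (13.3%) and 6 of 13 (46.2%), against 13.5% of all promoters. CCAAT was present in 21 of 30 (70.0%) and 8 of 13 (61.5%), against 36.4%. The MCM6 promoter printed above has 2 copies of TTTGGCGCGAAA, 2 CCAAT matches and TTCGAA, and that of CENPF has 4 CCAAT matches and TTTGAA. NEIL3, counted with the replication genes, has TTTGAA at position −24 from its start and no E2F motif, whereas CENPU has TTTCGCGC on the opposite strand and no CHR motif.

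**Figure D5:**
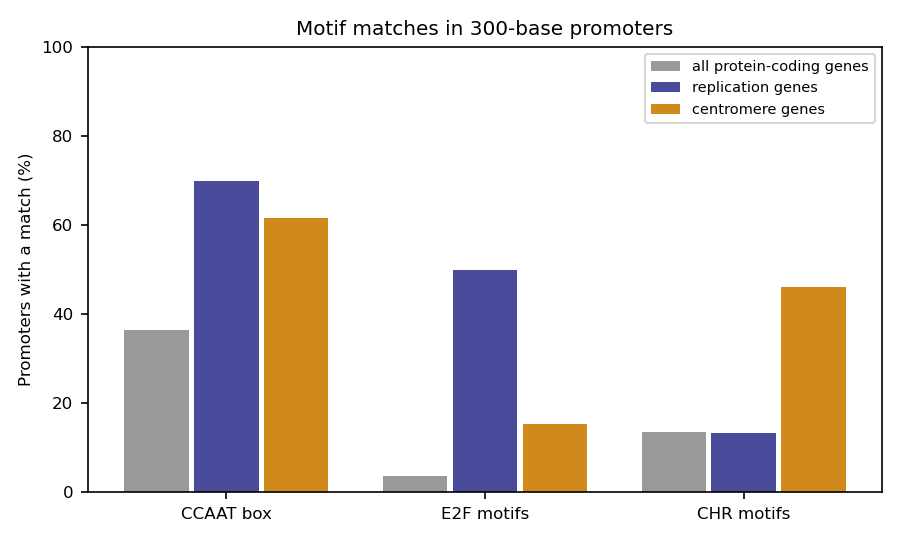
Share of promoters (300 bases each) with at least 1 match to CCAAT, to any of the 3 E2F motifs and to either CHR motif, for all protein-coding genes with an entry (grey), the replication genes (blue) and the centromere genes (orange). The E2F bar is highest for the replication genes (15 of 30) and the CHR bar for the centromere genes (46.2%).

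Shares with a motif were also counted by H4K16ac. An E2F motif was present in 6 of the 13 matched promoters with a control H4K16ac peak (46.2%) and in 11 of the 30 without (36.7%), and a CHR motif in 3 (23.1%) and 7 (23.3%). RFC4, with the strongest H4K16ac peak, has none of the 6 motifs in its window. A match describes letters in this window and is not evidence of binding.

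Other genes of the same pathways, from lists that were drawn up beside the 49, were likewise nearly all marked by H3K9ac. Of 42 further replication genes 41 had H3K9ac in both conditions, all but RPA3, which encodes the small subunit of the single-strand binding protein. Of 27 further centromere, kinetochore and checkpoint genes 27 had it in both. Over all genes the share with it in both was 54.7%. The ratio of butyrate to control level was a median of 0.740 for the further replication genes and 0.733 for the further centromere genes. It was above 1 at 4 of 41 and 1 of 27, against 24.2% of the 10717 genes marked in both, whose median was 0.828. No further gene lost H3K9ac.

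H4K16ac differed between the lists. In control 16 of the 42 further replication genes (38.1%) and 14 of the 27 further centromere genes (51.9%) had it, among them POLA2, TOPBP1 and TICRR of the first list and NDC80 (part of the kinetochore complex that binds microtubules), AURKB (the mitotic kinase Aurora B) and HJURP (the chaperone of CENPA) of the second. With butyrate the counts were 1 (MCMBP, which binds the MCM complex) and 2 (BUB1, a checkpoint kinase, and PMF1, a kinetochore subunit), all 3 also marked in control, with a −log10 q of 0.384 each in the butyrate list. The H4K16ac share over all genes was 18.9% in control and 4.61% with butyrate. Among genes with a control H3K9ac peak, as nearly all these genes have, it was 30.8% in control. Taking both lists of each kind, 29 of 75 replication genes (38.7%) and 16 of 43 centromere genes (37.2%) were marked in control. The lower count among the 16 centromere members was thus not seen in the wider set. Of those 16, 3 lie on chromosome 4, where 3.01% of genes had control H4K16ac, and without chromosome 4 the counts were 2 of 13 centromere and 13 of 31 replication members.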

How the data were processed

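Acetylated chromatin was profiled in 8 KGN samples, 1 per condition and antibody, and 6 peak lists were used. CASAVA 1.7 and MACS2 2.1.0 were used by the authors, per the submitters' processing notes. Which aligner and duplicate filter were used is not given in the sources used here. The notes name hg19, but gene starts in the deposited lists lay a median of 63 bp from RefSeq starts of GRCh38.p14, so positions are read as GRCh38. Starts were printed with 1 added. The deposited fold is the ratio of the fragments at a summit to the background around it, the deposited p and q are −log10 values, and the deposited score repeats them times a constant. These are the authors' own values per peak.

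Rows sharing at least 1 bp were merged, and the summit with the highest −log10 q stands for a promoter. A gene start was the RefSeq or the authors' start. Whole fragments at each summit were recovered from fold and p (100% of summits in 3 lists, 99.9% with butyrate H4K16ac, to within 0.001 on the log10 scale). Sequencing depth is unknown, and the pileup at the weakest listed summits was 6 to 9 fragments, so a promoter without a peak may hold the mark below this level. The merging, the 1 kb rule and the recovery of fragments without scaling were tried on simulated peaks. The authors' peak calls were not tested in this way. Python 3.11.15, pandas 2.3.3 and scipy 1.17.1 were used.

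The members and lists were chosen with earlier results of these data known. All 49 may be named, with full values for those that gained or lost H3K9ac, had H4K16ac, or were the 3 strongest, weakest, widest or narrowest. Other genes are named where they share a promoter or belong to the further lists and changed. POLA2, TOPBP1, TICRR, NDC80, AURKB and HJURP are examples among the further genes that lost H4K16ac. RPA3, MCMBP, BUB1, PMF1, the members near the edge of the window, the members with many or no peaks inside the gene and the members on chromosome 4 were named after their values were seen. Windows, limits, start definitions and matched list sizes were varied.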

Additional observations from a re-analysis of the deposited data

How the results depend on the processing

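With 1 library per group, the alternatives show how the calls move and not how they would vary between cultures. The H3K9ac counts of 49 in control and 47 with butyrate stayed within 1.5 times under every alternative run. Of all recomputed values 158 stayed close and 44 moved further. H3K9ac losses rose to 5 at a −log10 q of at least 5 (CENPC, GINS4 and ORC3 added), to 8 at a fold of at least 5 and to 6 with equal numbers of top peaks, and were 1 without NEIL3. H3K9ac gains were 1 (RFC3), 2 (CENPM and RFC1) and 3 (CENPI, MCM10 and MCM5) at that q, at that fold and with the authors' start alone. Members with a raised H3K9ac level numbered 1 with a window of 0.5 kb.

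H4K16ac depended on the window. With 0.5 kb, 1 member was marked with butyrate (1 gained, 0 replication genes) and 1 centromere gene in control. With 2.5 kb, 9 members were marked with butyrate (4 gained, 7 replication and 2 centromere genes). In control 15 of 33 replication and 7 of 16 centromere genes were marked. Of these, 5 had a peak in both lists, not always the same peak. With 5 kb, 29 members were marked in control (20 replication and 9 centromere genes) and 13 with butyrate (5 gained, 10 replication and 3 centromere genes). At a q of 0.05 or less no butyrate peak remained (0 members, 0 gained, 0 replication and 0 centromere genes). At a −log10 q of at least 5 and at a fold of at least 5 the control counts were 1 and 3 members, all lost and all replication genes, with 0 centromere genes, and with butyrate 0 members, 0 gained, 0 replication and 0 centromere genes. No paired analysis was possible because each group has 1 library.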
